A study of Mus musculus with 2 samples.

Results

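10 genes of the cartilage matrix were followed in single cells of amputated mouse digits, and they fell into 2 kinds of pattern. *Col2a1*, *Col9a1*, *Col9a2*, *Col9a3*, *Col11a2*, *Col10a1* and *Matn1* had at least 89.7% of their transcripts in a small class of chondrocyte-like cells, whereas *Acan*, *Col11a1* and *Comp* were divided between these and fibroblast-like cells. The 10 genes were taken by symbol, each matching 1 of the 33696 genes listed for both libraries. Middle phalanges (P2) of hindlimb digits 2 and 4 of ICR mice were amputated at postnatal day 3, and an agarose bead was implanted at postnatal day 7. The bead carried FGF8 (500 ng/µl) in one group and BSA (0.1% in PBS) in the other. The tissue distal to the stump was freed of epithelium and dissociated with Liberase 24 h later, at postnatal day 8. Each group was 1 library, pooled from 20 digits of 5 mice of both sexes. With 1 library per group no difference between FGF8 and BSA could be tested, and the treatment cannot be told apart from the pool of animals, its sex make-up or the dissection. All intervals are 95% intervals that cover counting error only.

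Cartilage gains its tensile strength from thin fibrils of type II collagen, with type XI collagen in their core and type IX collagen on their surface. Between the fibrils, aggrecan binds water and resists compression, and matrilins and COMP link the fibrils to the other components. In a growing digit bone, chondrocytes proliferate, stop dividing and enlarge, and these hypertrophic cells make type X collagen before bone replaces the cartilage. Some of these genes are also used outside hyaline cartilage, since tendon and ligament cells make COMP and fibrocartilage cells make aggrecan.

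The sequence immediately upstream of the annotated start is shown for 4 of the genes, a pair found mostly in chondrocyte-like cells (*Col2a1* and *Col10a1*) and a pair shared with fibroblast-like cells (*Acan* and *Comp*). On GRCm39 these 200 bases lie at chr15:97902690-97902889 (minus strand) for *Col2a1*, chr10:34265771-34265970 (plus strand) for *Col10a1*, chr7:78702764-78702963 (plus strand) for *Acan* and chr8:70825992-70826191 (plus strand) for *Comp*. Each is written 5′ to 3′ on the strand of its gene and ends at the base before the start of the canonical transcript of GENCODE vM39. Capitals mark matches, on either strand, to any of 5 motifs. The first is TATAAA, the core promoter element that binds the TATA-binding protein. The second is GGGCGG, known as the GC box and bound by SP factors. SOX factors are known to bind ACAAAG and a related motif with the letters AACAAT. The last motif is ACCACA, the core letters known for binding of RUNX factors.
Col2a1: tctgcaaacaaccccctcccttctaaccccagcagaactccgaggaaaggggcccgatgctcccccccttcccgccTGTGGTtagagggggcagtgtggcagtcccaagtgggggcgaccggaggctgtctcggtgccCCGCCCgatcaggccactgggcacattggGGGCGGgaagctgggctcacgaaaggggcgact
Col10a1: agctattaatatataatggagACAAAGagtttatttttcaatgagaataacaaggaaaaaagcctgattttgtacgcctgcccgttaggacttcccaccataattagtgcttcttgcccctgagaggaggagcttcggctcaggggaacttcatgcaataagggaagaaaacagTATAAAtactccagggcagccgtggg
Acan: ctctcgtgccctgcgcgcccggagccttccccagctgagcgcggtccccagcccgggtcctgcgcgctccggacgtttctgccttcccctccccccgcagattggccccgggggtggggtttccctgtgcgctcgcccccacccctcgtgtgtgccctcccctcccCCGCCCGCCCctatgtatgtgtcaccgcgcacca
Comp: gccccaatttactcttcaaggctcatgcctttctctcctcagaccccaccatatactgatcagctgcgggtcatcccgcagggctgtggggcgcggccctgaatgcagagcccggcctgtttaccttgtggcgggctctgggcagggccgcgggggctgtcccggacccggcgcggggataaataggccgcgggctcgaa
The *Col10a1* window held TATAAA, from base -26 to base -21 before the start, and 1 match to the first SOX motif. Of the windows of the same length before 21770 protein-coding genes, 9.57% held the former and 12.5% the latter. The *Col2a1* window held 2 GC boxes, the nearer from base -33 to base -28, and 1 RUNX motif, which 34.8% and 10.5% of all windows held. The *Acan* window held 2 overlapping GC boxes, and the *Comp* window held none of the 5 motifs. The second SOX motif, which 7.43% of all windows held, was in the *Col9a2* window alone among the 10 genes. The GC content of the 4 windows was 43% for *Col10a1*, 65.5% for *Comp*, 67% for *Col2a1* and 74% for *Acan*, against a median of 54.5% over all windows. These letters are a description of the sequence, and no binding was measured.

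After filtering, 6715 of 7249 barcodes of the FGF8 library and 3252 of 3703 of the BSA library were kept, with median depths of 12251 and 15377 UMIs (unique molecular identifiers, each a captured transcript). The libraries shared 4 kept barcodes. Cells with an *Xist* UMI and no UMI of 4 Y-linked genes were called female, and the reverse male. Female-called cells made up 24.6% (FGF8) and 79.3% (BSA) of the called cells, so that values within each sex stand beside the pooled ones. Cells were clustered without the 10 genes, so that the clusters did not rest on them. The chondrocyte-like cluster held 132 FGF8 cells (1.97%, interval 1.65 to 2.33%) and 52 BSA cells (1.60%, 1.20 to 2.09%). It was led by *Snorc*, which codes for a membrane proteoglycan of chondrocytes, and by *Cnmd*, *Mia* and *Ucma*, and all 13 markers of the chondrocyte list, none of them among the 10 genes, were detected in it. Its median depth was 22128 UMIs (FGF8) and 26827 UMIs (BSA). Fibroblast-like cells numbered 3269 and 1656, and cells of the blood lineages (erythroid-, neutrophil-, macrophage- and mast-like) 2099 and 748.

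Of all *Col2a1* UMIs, 93.2% (FGF8) and 96.0% (BSA) lay in chondrocyte-like cells. For *Col9a1*, *Col9a2*, *Col9a3*, *Col11a2*, *Col10a1* and *Matn1* this share lay between 89.7% (*Col11a2*, FGF8) and 98.4% (*Matn1*, BSA). The other 3 genes were divided between the classes. Of *Acan* UMIs, 44.4% (FGF8) and 48.9% (BSA) were in chondrocyte-like and 51.4% and 48.6% in fibroblast-like cells. Of *Col11a1* UMIs, chondrocyte-like cells held 57.4% and 48.0%, and fibroblast-like cells 37.9% and 49.3%. *Comp* lay mostly in fibroblast-like cells, with 54.7% (FGF8) and 61.1% (BSA) of its UMIs. The classes differ greatly in size, so that the level per cell was still highest in chondrocyte-like cells for all 10 genes in both libraries.

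**Figure D1:**
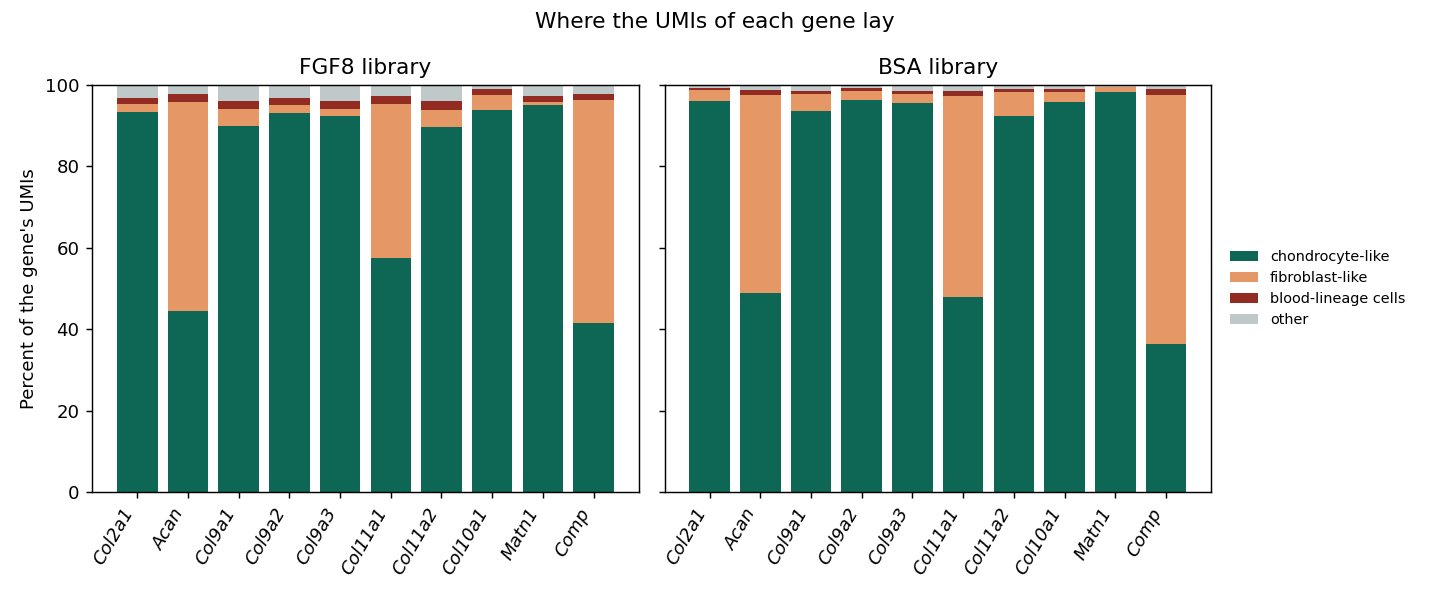
Percent of the UMIs of each gene (vertical axis) that lay in chondrocyte-like, fibroblast-like, blood-lineage and all other kept cells, for the FGF8 library (left) and the BSA library (right). Acan, Col11a1 and Comp are split between the first 2 classes, while chondrocyte-like cells hold at least 89.7% of every other gene in both libraries.

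Blood-lineage cells, which do not make cartilage matrix, gave the background of stray transcripts, in CPM, the UMIs of a gene scaled to a total of 1e+06 UMIs in the same cells. *Col2a1* in blood-lineage cells stood at 83.6 CPM (FGF8) and 40.3 CPM (BSA). In fibroblast-like cells it stood at 25.4 and 41.7 CPM, 0.304 and 1.04 times that background. The share of fibroblast-like cells with a *Col2a1* UMI was 23.7% (FGF8) and 28.4% (BSA) at median depths of 18821 and 20552 UMIs. The share of blood-lineage cells was 16.1% and 22.5% at 6102 and 7800.5 UMIs. With every cell thinned to 2000 UMIs, the shares were 4.03% and 4.97% in fibroblast-like cells and 5.96% and 8.30% in blood-lineage cells. *Col2a1* in fibroblast-like cells was therefore read as background. The levels of *Col9a1*, *Col9a2*, *Col9a3*, *Col11a2*, *Col10a1* and *Matn1* in fibroblast-like cells were all under 8 CPM, 0.128 to 0.655 times the blood level in the FGF8 library and 0.682 to 2.08 times in the BSA library. Over the class as a whole they were also read as background. At equal depth the share of fibroblast-like cells with a UMI of these 6 genes was below that of blood-lineage cells in both libraries, except for *Col10a1* in the FGF8 library (0.539% against 0.341%). *Acan*, *Col11a1* and *Comp* stood clear of it, at 6.26, 4.75 and 8.61 times the blood level in the FGF8 library and 9.42, 9.73 and 9.93 times in the BSA library.

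**Figure D2:**
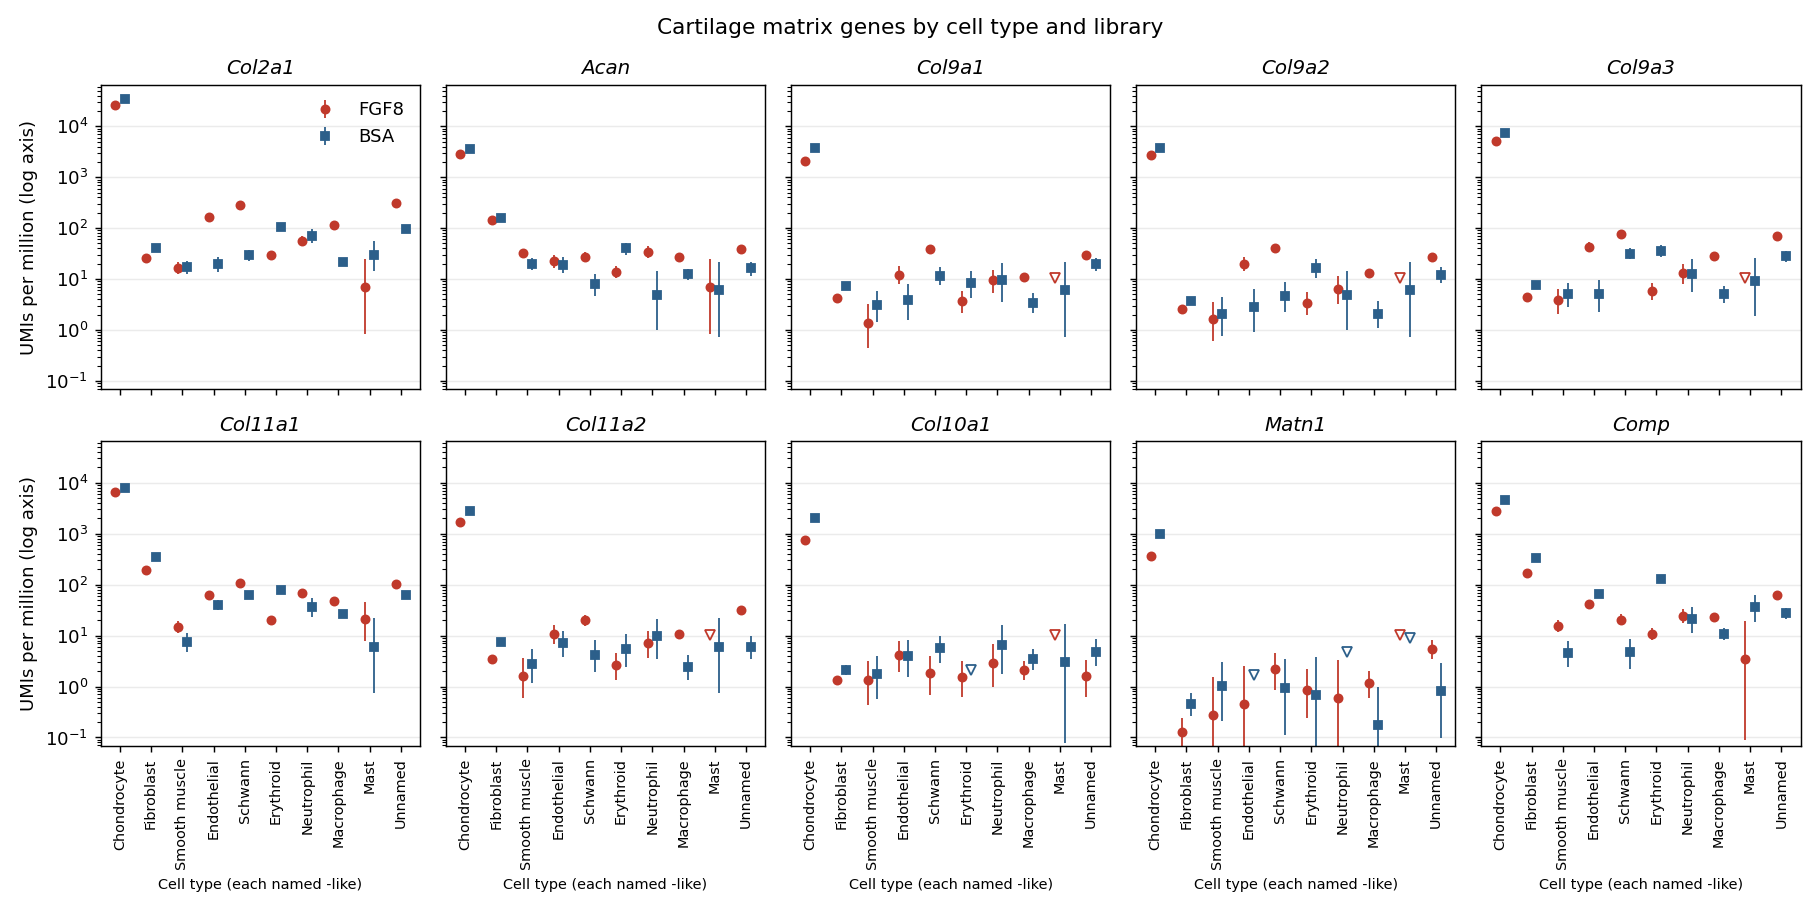
Level of each gene (CPM, log axis) in 10 classes of cells, for the FGF8 library (red circles) and the BSA library (blue squares), with bars for 95% Poisson intervals and open triangles where no UMI was found, drawn at the limit that a count of 0 allows. Chondrocyte-like cells stand highest in every panel, and only Acan, Col11a1 and Comp are raised in fibroblast-like cells in both libraries.

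The background was not even across cells. In the FGF8 library the 10 blood-lineage cells with most *Col2a1* held 74.2% of its blood UMIs, 1 macrophage-like cell having 724, while the median among blood-lineage cells with any was 1. Outside the chondrocyte-like cluster, 16 FGF8 cells carried 50 or more *Col2a1* UMIs and held 67.9% of all *Col2a1* UMIs found there, and 6 BSA cells held 37.2%. The 16 cells were 5 unnamed, 4 fibroblast-like, 3 endothelial-like, 3 macrophage-like and 1 Schwann-like, the last with 857 UMIs. The higher *Col2a1* of endothelial-like and Schwann-like cells in the FGF8 library thus rested on 4 cells, which held 92.8% and 92.0% of the UMIs of these classes.

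In chondrocyte-like cells all 10 genes were lower in the FGF8 library, where 52% of the 11949 genes with at least 10 UMIs were lower. The median log2 ratio of FGF8 over BSA was -0.60 over the 10 genes and -0.03 over all genes tested. The 10 genes together made up 5.11% (FGF8) and 7.10% (BSA) of the UMIs of chondrocyte-like cells. Of the 10, 2 (*Col10a1* and *Matn1*) were lower by over 2-fold, as were 6.86% of all genes. None was higher, where 48% of all genes were and 10.8% by over 2-fold.

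Among the fibril-forming collagens, *Col2a1*, the main chain of cartilage fibrils, stood at 26036 CPM with FGF8 and 34351 CPM with BSA (log2 ratio -0.40, -0.42 to -0.38). *Col11a1* stood at 6669 and 7927 CPM (-0.25, -0.28 to -0.22), and *Col11a2*, its partner in the type XI trimer, at 1702 and 2772 CPM (-0.70, -0.76 to -0.65). The smallest difference of the 10 genes was thus that of *Col11a1*, which is also made outside cartilage. The chains of type IX collagen, which sits on the fibril surface, did not differ by like amounts. *Col9a1* was lower by more, with 2107 and 3771 CPM (-0.84, -0.89 to -0.79), than *Col9a2*, with 2749 and 3774 CPM (-0.46, -0.51 to -0.41), or *Col9a3*, with 5029 and 7220 CPM (-0.52, -0.56 to -0.49). The counting interval of *Col9a1* did not overlap those of its partners, but it leaves out the spread between cells and pools. Over the 17 alternatives described at the end, the ratios of the chains overlapped. They ran from -1.49 to -0.41 for *Col9a1*, -0.77 to -0.21 for *Col9a2* and -0.80 to -0.41 for *Col9a3*.

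*Acan*, which codes for the large aggregating proteoglycan aggrecan, stood at 2828 and 3616 CPM (-0.35, -0.40 to -0.31). This pooled difference was not seen in the typical cell, since the median over single cells was 2608 CPM in the FGF8 and 2627 CPM in the BSA library, and 1 BSA cell held 11.3% of the *Acan* UMIs. With a stricter filter on cells the ratio was 0.02. *Comp*, a pentameric matrix protein that binds collagen, stood at 2824 and 4533 CPM (-0.68, -0.73 to -0.64). *Matn1*, the cartilage matrilin, stood at 357 and 981 CPM (-1.46, -1.57 to -1.35), and *Col10a1*, the collagen of hypertrophic chondrocytes, at 759 and 2069 CPM (-1.45, -1.52 to -1.37). Without the 1 cell with most *Col10a1* in each library, the *Col10a1* levels were 472 and 1484 CPM (log2 ratio -1.65, -1.75 to -1.56).

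The sex make-up of the chondrocyte-like cells also differed, with 40 female-called and 78 male-called cells in the FGF8 library and 39 and 11 in the BSA library. Among female-called cells all 10 genes were again lower in the FGF8 library, with a median log2 ratio of -0.98. The female ratios reached -3.56 for *Col10a1* (228 and 2681 CPM), -3.05 for *Matn1* (129 and 1069 CPM) and -1.96 for *Comp* (1255 and 4886 CPM). Among male-called cells, where the BSA level rests on 11 cells, *Acan*, *Col11a1* and *Comp* were higher in the FGF8 library, each with a log2 ratio of 0.28. *Col10a1* had 1878 UMIs in male-called FGF8 cells and none in the 11 male-called BSA cells. Counting 3 UMIs as the floor of the BSA group, *Col10a1* was at least 99.8-fold higher. This fold leans on 1 male-called cell, which held 38.7% of the *Col10a1* UMIs of all FGF8 chondrocyte-like cells. No *Col10a1* UMI was found in 94 of 132 FGF8 and 37 of 52 BSA chondrocyte-like cells. Its absence from 11 cells therefore says little. *Col2a1* and the type IX genes were lower in the FGF8 library in both sexes, at -0.76 and -0.10 for *Col2a1*, as was *Matn1* (-0.75 in male-called cells). *Col11a2* was lower in female-called cells (-1.15), but among male-called cells its interval included 0 (-0.07, -0.19 to 0.06). The direction of *Acan*, *Col11a1* and *Comp* in chondrocyte-like cells thus differed between the sexes called, as did that of *Col10a1* within the limits given. Male and female cells of a pool come from different mice, so that sex cannot be told apart from the animal.

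**Figure D3:**
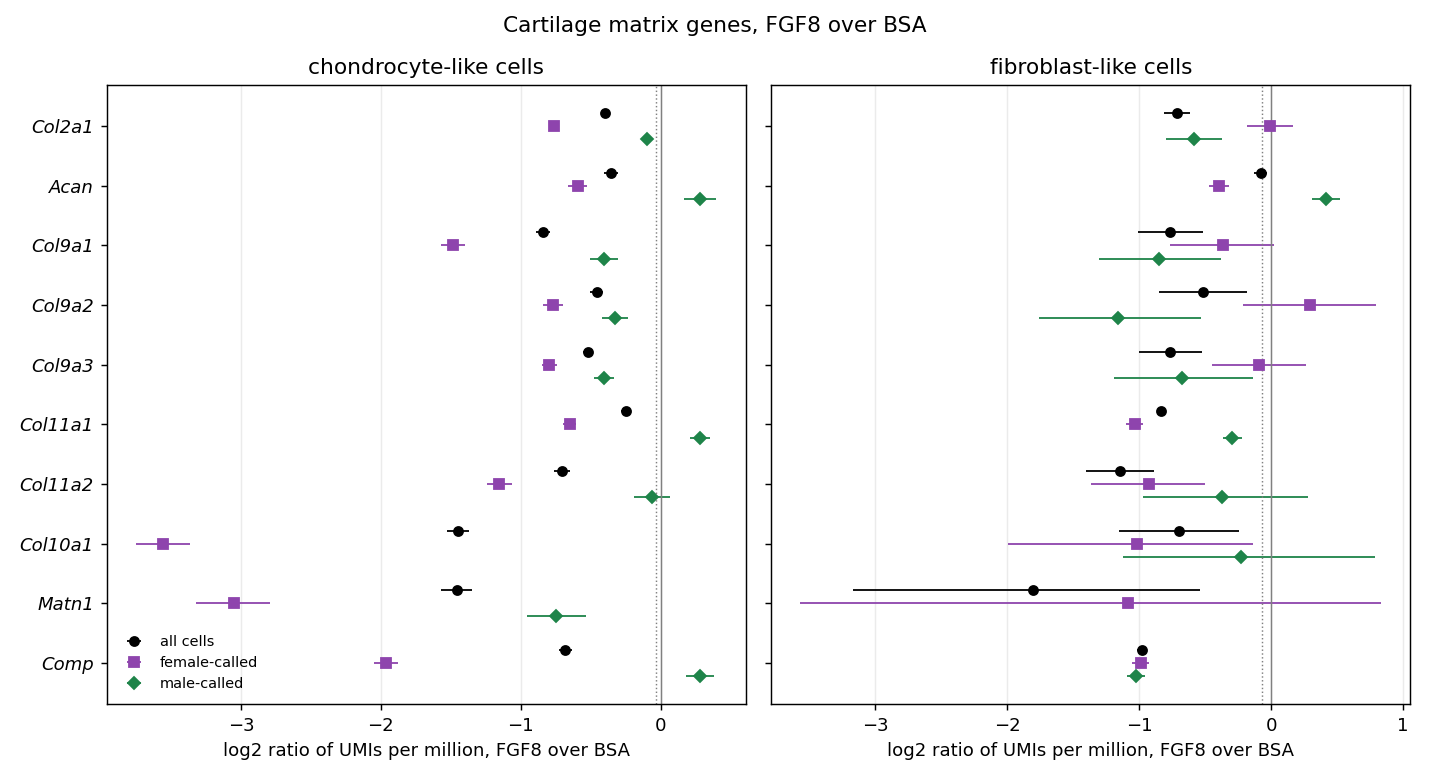
Log2 ratio of CPM, FGF8 over BSA, of each gene in chondrocyte-like (left) and fibroblast-like cells (right), for all cells, female-called cells and male-called cells, with 95% counting intervals; the dotted line is the median of all genes tested. All 10 black points lie left of 0 in both panels, and in chondrocyte-like cells the male-called points of Acan, Col11a1 and Comp lie at 0.28. Points with a group at 0 UMIs or under 10 UMIs in all are not drawn.

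Summed levels of markers of several other cell types differed between the libraries in the chondrocyte-like cluster. Their part in the differences of the 10 genes was not tested. The 8 erythroid markers summed to 2391 CPM in FGF8 and 117 CPM in BSA chondrocyte-like cells with 3 and 4 of them at 0, the 9 neutrophil markers to 166 and 3.26 CPM with 3 and 7 of them at 0, and the 10 macrophage markers to 218 and 29.3 CPM with 0 and 4 at 0. The 10 fibroblast markers summed to 2924 and 5015 CPM, and to 13390 and 23119 CPM in all cells outside the cluster. The 8 tenocyte markers summed to 223 and 568 CPM, and to 502 and 413 CPM outside the cluster. Most of the tenocyte sum in the cluster was *Fmod* (192 and 519 CPM), which is also on the list of other cartilage matrix. *Thbs4*, on both lists too, ran the other way (10.5 and 8.48 CPM). The sums of osteoblast markers (8, 1118 and 799 CPM), keratinocyte markers (10, 190 and 80.2 CPM) and Schwann cell markers (8, 163 and 95.8 CPM) were higher in the FGF8 library. The osteoblast markers were mixed. *Ibsp* (364 and 149 CPM) and *Runx2* (411 and 329 CPM) were higher there, while *Alpl* (133 and 273 CPM) and *Sp7* (17.2 and 21.5 CPM) were lower. The 13 chondrocyte markers, which share no gene with the 10, summed to 12587 and 21407 CPM.

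Single chondrocyte-like cells carried most of the 10 genes at once. At least 8 of the 10 were detected in 131 of 132 FGF8 cells and 50 of 52 BSA cells. All 10 were detected in 26 and 15 cells. *Col2a1*, *Col9a3*, *Col11a1* and *Col11a2* were found in each of these cells in both libraries. *Col2a1* ranged from 804 to 67096 CPM over FGF8 cells, with a median of 23345, and from 1864 to 82273 CPM over BSA cells, with a median of 29805. The 2 libraries overlapped widely in every gene. *Matn1* was detected in 59.1% of FGF8 cells (interval 50.2 to 67.6%) and 73.1% of BSA cells (59.0 to 84.4%), against 0.381% and 0.267% of blood-lineage cells. Thinned to 2000 UMIs these shares of chondrocyte-like cells were 31.8% and 53.8%, against 0.114% and 0.148% of blood-lineage cells.

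**Figure D4:**
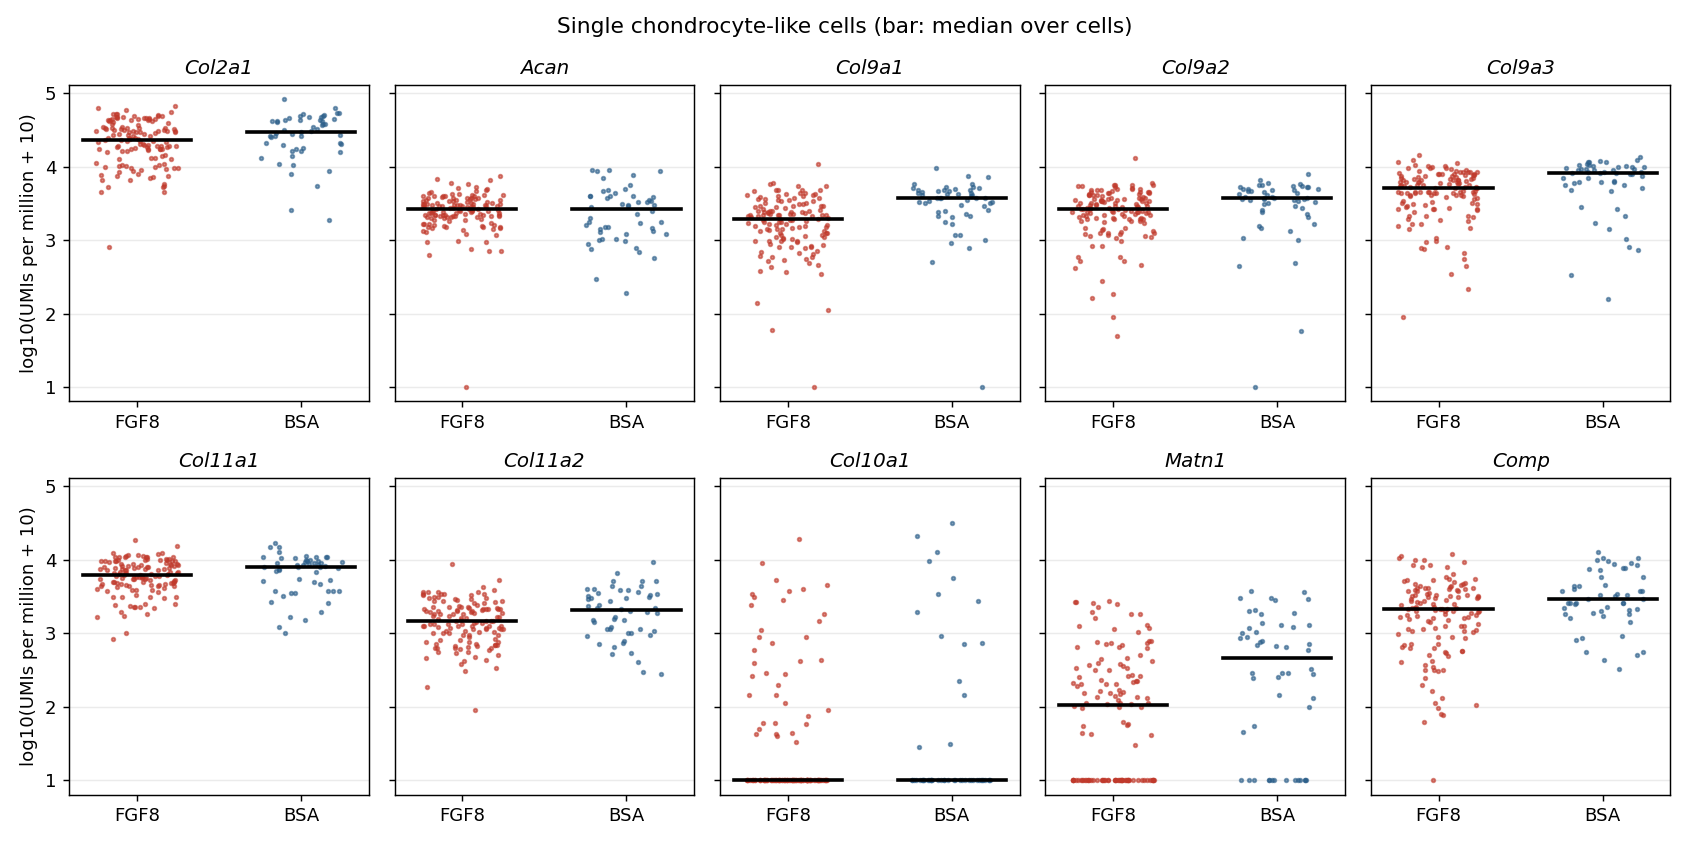
Each point is 1 chondrocyte-like cell (132 in the FGF8 and 52 in the BSA library), plotted at log10 of its CPM plus 10, with a bar at the median over cells. Most genes form 1 broad cloud in both libraries, while no UMI of Col10a1 was captured in 94 FGF8 and 37 BSA cells, and it reaches 19236 and 31894 CPM in the highest cell.

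*Col10a1* was spread unlike the other genes. It was detected in 38 of 132 FGF8 cells (28.8%, 21.2 to 37.3%) and 15 of 52 BSA cells (28.8%, 17.1 to 43.1%), against 1.52% and 3.21% of blood-lineage cells. Thinned to 2000 UMIs, 15.2% and 19.2% of chondrocyte-like cells had a *Col10a1* UMI, against 0.341% and 1.19% of blood-lineage cells. A single cell held 38.7% of the *Col10a1* UMIs of FGF8 chondrocyte-like cells, and another 30.4% of those of BSA cells. All 15 BSA cells with *Col10a1* also had *Matn1*, as did 26 of the 38 FGF8 cells.

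The cells with 10 or more *Col10a1* UMIs, a range chosen with the values known, numbered 19 in the FGF8 and 11 in the BSA library, with 7 and 2 cells between 5 and 19 UMIs. They were deeper than the rest, with medians of 31663 against 20800 UMIs in the FGF8 library and 45991 against 23846 in the BSA library. *Comp* stood at 5410 CPM in these FGF8 cells and 2215 CPM in the other FGF8 cells, and at 8139 and 2907 CPM in the BSA library. *Matn1* followed with 919 against 225 CPM (FGF8) and 1730 against 643 CPM (BSA). *Alpl*, the alkaline phosphatase of mineralizing cartilage and bone, stood at 571 against 29.1 CPM (FGF8) and 814 against 28.4 CPM (BSA). *Pth1r*, the receptor for PTHrP that marks prehypertrophic cells, stood at 560 against 87.4 CPM and 1019 against 155 CPM. *Ucma*, a marker of resting and early chondrocytes, ran the other way, at 242 against 710 CPM and 52.4 against 1845 CPM. *Ihh*, the hedgehog ligand of prehypertrophic chondrocytes, stood at 518 against 66.2 CPM in the BSA library and at 252 against 218 CPM in the FGF8 library. Other genes of hypertrophy and mineralization were mixed. *Panx3*, a channel of prehypertrophic cells, stood at 224 against 28.4 CPM (FGF8) and 585 against 69.1 CPM (BSA). *Sp7*, at a lower level, was also higher in the cells with 10 or more *Col10a1* UMIs in both libraries. *Mmp13*, *Spp1* and *Ibsp* did not follow *Col10a1*. *Mmp13*, the collagenase of late hypertrophic cartilage, stood at 256 against 367 CPM (FGF8) and 0 against 682 CPM (BSA). *Spp1* stood at 24322 against 39771 CPM and 1713 against 3882 CPM, and *Ibsp* at 347 against 368 CPM and 20.97 against 207 CPM. All genes named beside *Col10a1* here were chosen with their values known. Among cells with fewer than 10 *Col10a1* UMIs, the log2 ratio of FGF8 over BSA was -1.52 for *Matn1*, -0.88 for *Col9a1* and -0.28 for *Col2a1*, whereas *Acan* did not differ beyond its interval (0.01, -0.05 to 0.08).

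In fibroblast-like cells the 3 genes above background were lower in the FGF8 library or close to even. *Comp* stood at 167 CPM in the FGF8 and 330 CPM in the BSA library (log2 ratio -0.98, -1.01 to -0.94). *Col11a1* stood at 198 and 353 CPM (-0.83, -0.87 to -0.80). *Acan* stood at 147 and 156 CPM (-0.08, -0.13 to -0.03), near the median of all genes tested in these cells (-0.07). All 10 genes had a ratio below 0, as did 55.9% of the 20038 genes tested, and *Col11a2* and *Matn1* were lower by over 2-fold, as were 5.01% of all genes. None was above 0, as 44.1% of genes were, or higher by over 2-fold, as 6.63% were, but the 7 genes at background carry no reading here. *Comp* was lower by like amounts in female-called (-0.99) and male-called cells (-1.02). *Col11a1* differed more in female-called (-1.04) than in male-called cells (-0.29). *Acan* was lower in female-called cells, at 129 and 170 CPM (-0.40), and higher in male-called cells, at 154 and 116 CPM (0.41). These ratios also depended on how fibroblast-like cells were delimited. At a finer clustering (resolution 0.1), where the class no longer held subclusters 1 and 2, the *Prg4*- and *Fmod*-led cells described next, the ratio was -0.09 for *Comp*, 0.03 for *Col11a1* and 0.14 for *Acan*.

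*Acan* UMIs were found in 44.5% of FGF8 and 35.4% of BSA fibroblast-like cells, and after thinning in 16.7% and 14.9%, against 2.61% and 1.93% of blood-lineage cells. Since its CPM ran the other way, no order was read from these shares. *Col11a1* was found in 50.5% and 51.9% of fibroblast-like cells, and after thinning in 20.99% and 25.7%, against 4.20% and 4.44% of blood-lineage cells. *Comp* was found in 34.9% and 33.9%, and after thinning in 15.4% and 18.8%, against 3.35% and 2.81% of blood-lineage cells. All 3 shares stood above those of blood-lineage cells at equal depth.

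Re-clustering the fibroblast-like cells without the 10 genes gave 6 subclusters, and 2 of them carried nearly all *Acan* and *Comp*. Subcluster 1 was led by *Prg4*, which codes for the joint lubricant lubricin, and *Mmp3*, a matrix metalloproteinase, and subcluster 2 by *Fmod* and *Kera*, small proteoglycans of tendon and other fibrous tissue, and *Mgp*, an inhibitor of mineralization. Histone genes (*H1f5*, *H2ac8* and *H3c3*) were also among the leading genes of subcluster 1. Subclusters 1 and 2 were left without a cell type name. Together they held 93.0% of the fibroblast *Comp* UMIs in the FGF8 and 94.8% in the BSA library, and 90.5% of the *Acan* UMIs in both. For *Col11a1* they held 68.9% and 74.0%, since subcluster 5, led by *Coch* and *Nrg1*, also carried it at 567 and 474 CPM. Subcluster 1 was larger in the FGF8 library (29.9%, 28.3 to 31.5%, against 15.1%, 13.4 to 16.9%) and subcluster 2 smaller (14.99%, 13.8 to 16.3%, against 19.6%, 17.7 to 21.6%).

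In subcluster 1, *Comp* stood at 118 CPM in the FGF8 and 466 CPM in the BSA library (-1.98, -2.04 to -1.91), the widest gap of the 3 genes. *Col11a1* stood at 96.3 and 266 CPM (-1.46, -1.54 to -1.38), and *Acan* at 166 and 283 CPM (-0.77, -0.84 to -0.70). All 9 of the genes with at least 10 UMIs there were lower, as were 55.6% of 16965 genes, and 4 by over 2-fold, as were 9.9% of genes. None was higher, where 44.4% of genes were and 5.35% by over 2-fold. As in the class as a whole, these counts take in genes read as background. Of the 4 genes, *Col9a1* (4.04 and 10.95 CPM) and *Col9a3* (3.57 and 7.93 CPM) were such genes. Only *Comp*, *Col11a1* and *Acan* were read here. All 3 genes were lower in both sexes there, *Comp* at -1.93 and -2.41, *Col11a1* at -1.71 and -1.37, and *Acan* at -0.99 and -0.41, female-called cells first. The 10% of cells with most *Comp* held 65.1% (FGF8) and 65.6% (BSA) of its UMIs in this subcluster. Medians over single cells ran against the pooled ratios, at 18.4 CPM (FGF8) and 0 (BSA) for *Comp* and 88.4 and 81.6 CPM for *Acan*, whereas for *Col11a1* they were 26.7 and 88.3 CPM. A *Comp* UMI was found in 50.6% and 48.8% of cells, and after thinning in 14.9% and 26.5%. For *Acan* these shares were 69.6% and 64.8%, and after thinning 22.5% and 34.1%. For *Comp* and *Acan* the medians, taken at unequal depth (34780 and 31334 UMIs), thus did not follow the pooled levels. At equal depth the shares of cells were lower in the FGF8 library, as the pooled levels were.

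In subcluster 2 the gap was smaller. *Comp* stood at 640 and 892 CPM (-0.48, -0.53 to -0.43) and *Col11a1* at 584 and 864 CPM (-0.56, -0.61 to -0.52), while *Acan* did not differ beyond its interval at 339 and 332 CPM (0.03, -0.04 to 0.10). Of the 9 genes tested, 7 had a ratio below 0 and 2 above, where 48.2% of 15499 genes were below, and none passed 2-fold in either direction, as 4.06% of genes did downwards and 5.46% upwards. These counts also take in genes read as background over fibroblast-like cells as a whole. Of these, *Col11a2* stood at 11.9 and 23.1 CPM here, against 8.00 and 3.67 CPM in blood-lineage cells. A single BSA cell held 45 of its 191 UMIs. *Comp* was lower in both sexes (-0.52 and -0.87), whereas *Col11a1* was lower in female-called cells (-0.82) and even in male-called cells (-0.03, -0.15 to 0.10). With FGF8 levels weighted to the subcluster make-up of the BSA library, the ratios over all fibroblast-like cells were -0.79 for *Comp*, -0.46 for *Col11a1* and -0.20 for *Acan*. Ratios differed in sign between subclusters, since pooled *Comp* was higher with FGF8 in subcluster 4 (156 and 94.9 CPM). The BSA level there rested on 61 *Comp* UMIs, 12 of them in a single cell. In subcluster 0 (21.8 and 14.8 CPM) *Comp* did not stand clear of blood-lineage cells (19.4 and 33.2 CPM), so no direction was read there. The part of the subcluster make-up in these differences cannot be told apart from that of the library.

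**Figure D5:**
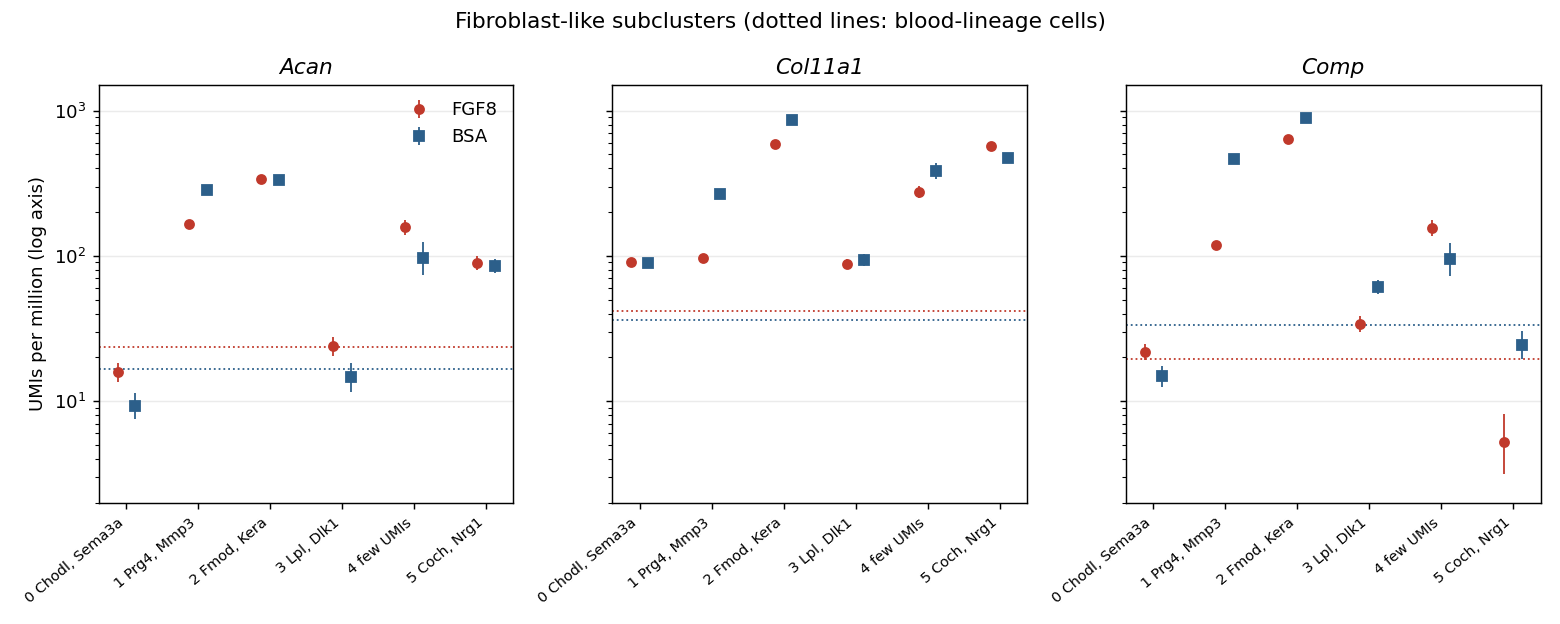
Level of Acan, Col11a1 and Comp (CPM, log axis) in the 6 fibroblast-like subclusters, named by number and leading genes, for the FGF8 library (red) and the BSA library (blue), with 95% Poisson intervals; dotted lines give the level in blood-lineage cells of the same library. Both Comp and Acan stand highest in subcluster 2, and Comp in subcluster 1 is at 118 (FGF8) against 466 CPM (BSA), below the 156 CPM of FGF8 cells in subcluster 4.

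Other genes of the cartilage programme were read from 4 lists. In chondrocyte-like cells 19 of 23 tested genes of other cartilage matrix were lower in the FGF8 library (median log2 ratio -0.74), beside 52% of all genes, and 6 were lower by over 2-fold. Link protein *Hapln1*, which ties aggrecan to hyaluronan, stood at 2900 and 5111 CPM (-0.82), and *Snorc* at 4427 and 8063 CPM (-0.87). The lowest ratios among listed genes with at least 100 UMIs were those of *Panx3* (-1.81), a channel of prehypertrophic cells, *Fmod* (-1.44), *Epyc* (-1.42), *Vit* (-1.40) and *Matn3* (-1.29). The highest were those of *Spp1*, which codes for osteopontin, at 36823 against 3208 CPM (3.52), *Chad* (1.68), *Clec3a* (1.55), *Ibsp* (1.29), a sialoprotein of bone, and *Sox5* (0.67). *Chad* codes for chondroadherin, a collagen-binding protein of cartilage. Matrix genes as a group were therefore mostly lower but not without exception.

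Beside 52% of all genes lower, and 6.86% lower and 10.8% higher by over 2-fold, 7 of 11 tested transcription factors were lower (median -0.19), none beyond 2-fold in either direction. *Sox9*, the master regulator of chondrocytes, was higher in the FGF8 library, at 997 against 834 CPM (0.26, 0.16 to 0.35). Of 12 growth plate genes 8 were lower (median -0.39), with 4 lower and 3 higher by over 2-fold. Of 22 genes of collagen processing and proteoglycan sulfation 18 were lower (median -0.24), a share near that of the other matrix genes but by less, with none beyond 2-fold. In fibroblast-like cells 21 of 24 other matrix genes had a ratio below 0 (median -0.95, beside 55.9% of all genes). This count takes in genes at low levels, such as *Snorc* at 3.37 and 5.31 CPM. Blood-lineage levels were not set beside these lists, so no fall was read for genes this low. The lowest ratios in fibroblast-like cells were those of *Chad* (-1.94), *Otor* (-1.65), *Mia* (-1.55), *Cilp2* (-1.52) and *Matn3* (-1.32), each below 9 CPM in both libraries. The highest there were *Spp1* (2.35), *Thbs4* (1.35), a relative of COMP found in tendon, at 451 against 176 CPM, *Csgalnact1* (0.87), *Sox5* (0.87) and *Ugdh* (0.69). *Csgalnact1* and *Ugdh* take part in making chondroitin sulfate chains.

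Across 10 cell classes in both libraries (20 points, which share libraries and depth), the genes most like *Col2a1* in level were *Snorc* (r = 0.98), *Mia* (0.97), *Cnmd* (0.96), *Hapln1* (0.95) and *Matn3* (0.94). Those most like *Col10a1* were *Tmie*, *Pantr1*, *Foxa2*, *Matn3* and *Epyc* (0.99 each), and those most like *Comp* were *Igf2* (0.96), *Omd*, *Nrk* and *Kcnma1* (0.95 each) and *Cgref1* (0.94). *Snorc*, *Cnmd*, *Hapln1*, *Matn3* and *Epyc* were on the marker list that named the chondrocyte-like class. For *Col2a1* and *Col10a1* this class stood far above the others, so that r rests mainly on its 1 point per library. Across the 6 fibroblast-like subclusters in both libraries (12 points), *Comp* was most like *Hopx*, *Foxc1*, *Cbr2*, *Vasn* and *Spink2* (0.94 to 0.95). *Col11a1* was most like *Gramd2*, *Fzd8*, *Sobp*, *Ptprv* and *Dhrs3* (0.89 to 0.92).

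On GRCm39 the genes lie on 9 chromosomes, with *Col9a2* and *Matn1* both on chromosome 4. *Col2a1* (chromosome 15, 97873483 to 97902689, minus strand) has 54 exons in its canonical transcript, *Comp* (chromosome 8, 70826192 to 70834716) has 19 and *Col10a1* (chromosome 10, 34265971 to 34273081) has 3. *Acan*, *Col9a3* and *Col10a1* overlap genes on the opposite strand that were also counted, *Gm26633*, *Tcfl5* and *Nt5dc1*. The 3′ chemistry counts transcripts near their ends, so that levels of different genes were not compared with each other.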

How the data were processed

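The authors sequenced 2 single-cell 3′ libraries and deposited filtered matrices of UMI counts per gene and cell, with no normalization. The submitters' processing notes name Cell Ranger 9.0.0 and Seurat and list the builds GRCm39 and mm10 without a role, so coordinates here come from a match of gene identifiers to GENCODE vM39 (33185 of 33696 matched). Barcodes with more than 200 and fewer than 7500 genes and under 15% mitochondrial counts were kept. Libraries were normalized with sctransform 0.4.2 and integrated and clustered in Seurat 5.3.0 (R 4.3.3) at resolution 0.05 with 3000 variable features less the 10 genes, and clusters were named from marker lists without them. A cluster of mixed blood and epidermal cells was left unnamed, and its cells that were macrophage- or mast-like at resolution 0.1 were given those names, a step chosen after seeing the data. Fibroblast-like cells were re-clustered at resolution 0.2 with 2665 of 3000 variable features. Left out were the 10 genes, X- and Y-linked genes and the 354 genes in the paper's lists of differing fibroblast genes.

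UMIs were summed over the cells of a class and divided by all UMIs of the class (CPM) with pandas 2.3.3, numpy 2.4.6 and scipy 1.17.1 under Python 3.11.15. Levels have exact Poisson intervals, shares exact Clopper-Pearson intervals and ratios exact conditional intervals, all at 95% and for counting error only. A ratio needed 10 or more UMIs summed over the libraries. Shares of cells were also computed with cells thinned to 2000 UMIs, leaving out shallower cells. With 1 library per group no test was made. The calculations were tested on simulated data. Scrublet, run in scanpy 1.11.5, called 0 doublets and so had not worked, and no cell was removed. As an alternative the cells with the highest scores were removed, 361 (FGF8) and 85 (BSA), at an assumed rate of 0.8% per 1000 cells.

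The 10 genes, the lists of other cartilage genes and the markers were chosen with earlier results of these data known. The genes named are the 10, the 5 highest and 5 lowest ratios among listed genes with at least 100 UMIs, and the 5 genes with the highest Pearson correlation of log2(CPM + 10). *Hapln1*, *Snorc* and *Sox9*, and the genes given beside *Col10a1*, were named in addition after their values were seen. Of 23 listed processing genes 22 were found by symbol. Alternatives covered the cell filter, clustering, naming, weighting, depth, scaling, sex, doublets, background and UMI minimum. After seeing the data, 2 more were added, the subcluster make-up and the cells with few *Col10a1* UMIs.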

Additional observations from a re-analysis of the deposited data

Results flagged for a closer look

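Some ratios had opposite signs in the sexes called from the cells, and the differences between the sexes were not tested. In chondrocyte-like cells the log2 ratio of FGF8 over BSA was 0.28 in male-called cells and -0.59 in female-called cells for *Acan*, 0.28 and -0.65 for *Col11a1*, and 0.28 and -1.96 for *Comp*. *Col10a1* was at least 99.8-fold higher in male-called FGF8 cells, against a BSA group with no UMI, while its log2 ratio among female-called cells was -3.56. The male-called fold leans on 1 cell, which held 38.7% of the *Col10a1* UMIs of all FGF8 chondrocyte-like cells. The male-called BSA values rest on 11 cells. In fibroblast-like cells the log2 ratio of *Acan* was 0.41 (male-called) and -0.40 (female-called).

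Barcodes left out by the filters also carried the 10 genes, above the level that a count of 0 allows. In the FGF8 library their summed level was 1042 CPM in the 274 barcodes with 7500 genes or more, 118 CPM in the 19 with 200 genes or fewer and 2575 CPM in the 241 with 15% or more mitochondrial counts. In the BSA library it was 2280 CPM in 161, 212 CPM in 150 and 11669 CPM in 144 barcodes. The last group of BSA barcodes held *Col2a1* at 5802 CPM, with 9 barcodes of 50 or more UMIs, and the same group of the FGF8 library at 963 CPM, with 3.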

How the results depend on the processing

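No paired analysis was possible because each group is 1 library, and for the same reason no library could be left out. In chondrocyte-like cells 6 of the 10 genes (*Col2a1*, *Col9a1*, *Col9a2*, *Col9a3*, *Col11a2* and *Matn1*) were lower in the FGF8 library under each of the 17 alternatives. The number of genes higher there, 0 as reported, was 1 with a stricter cell filter (*Acan*, 0.020), 4 in male-called cells and 2 in cells with fewer than 10 *Col10a1* UMIs (*Acan* at 0.011 and *Col10a1* at 0.79). In male-called cells the median was -0.082, with *Acan*, *Col11a1* and *Comp* at 0.28 and *Col10a1* at 6.64 or more against the floor of 3 UMIs. In fibroblast-like cells the number higher, 0 as reported, was 2 at resolutions 0.1 and 0.2 and 1 with the stricter filter, naming per cell, equal weights, thinning to 2000 or 5000 UMIs and each sex. *Acan* was at 0.25 with the stricter filter, 0.14 and 0.13 at the finer resolutions, 0.34 with naming per cell, 0.18 with equal weights, 0.081 thinned to 5000 UMIs and 0.41 in male-called cells. *Col11a1* was at 0.026 and 0.020 at the finer resolutions, which leave the cells of subclusters 1 and 2 out of the class, and *Col9a2* at 0.35 thinned to 2000 UMIs and 0.30 in female-called cells. The median of -0.77 was -0.48 and -0.49 at the finer resolutions, -0.40 with naming per cell and -0.31 thinned to 2000 UMIs. The share of *Col2a1* UMIs in chondrocyte-like cells was 96.8% (FGF8) and 94.3% (BSA) with the stricter filter, 94.6% and 97.3% with the 10 genes among the features, and for FGF8 94.0% with naming per cell and 96.1% without high Scrublet scores. Chondrocyte-like cells were 2.39% of FGF8 cells with the stricter filter, and 3.44% (FGF8) and 3.01% (BSA) with naming per cell. Apart from the exclusions named, the causes were not tested. Precision is limited by 52 BSA chondrocyte-like cells.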

Other observations

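With the 10 genes among the clustering features, 11 more FGF8 cells and 14 more BSA cells joined the chondrocyte-like cluster and 1 FGF8 cell left it. The cells that joined were shallow, with median depths of 3367 and 1939 UMIs, and carried a median of 50 and 20 *Col2a1* UMIs. In subcluster 4 of the fibroblast-like cells, which had few UMIs per cell (medians of 2654 and 3191), *Comp* stood at 156 CPM in the FGF8 and 94.9 CPM in the BSA library, and *Acan* at 158 and 96.5 CPM, so that both were higher in the FGF8 library there.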
